A study of Homo sapiens with 12 samples.

Results

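The region described here spans bands 6p22.2, 6p22.1 and 6p21.33 on the short arm of chromosome 6 (chr6:25200000-32100000, build hg19, 6.9 Mb), which holds the main histone gene clusters and the first part of the major histocompatibility complex (MHC). Its members are the distinct intervals, chosen by their overlap with these positions, of 2 deposited peak lists, GATA1 and TAL1 in control K562 cells. There were 311 members out of 24658 distinct intervals in both lists, 304 of them in the GATA1 list and 55 in the TAL1 list. Of the 311, 48 (15.4%) were in both lists, against 28.5% of all distinct intervals on chromosomes 1 to 22 and X. An interval in both lists has the same start and end in each. The sources used here do not say if each list was called on its own or cut from 1 shared interval set, so a share also in the other list describes the lists as deposited. In the GATA1 list only there were 256 (82.3%, against 63.8% of all), and in the TAL1 list only 7 (2.25%, against 7.65% of all). The region was picked with the densities and shares of these same lists known. All values below are therefore descriptions, and no test is given for them.

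The intervals come from chromatin immunoprecipitation and sequencing (ChIP-seq) of K562, an established human erythroleukemia line, without knockdown and with 1 library per antibody. The labels do not say whether the control cells carried a control vector. The rest of the series, not analysed here, holds 10 libraries, from control cells and from cells in which GATA1 or TAL1 was knocked down by lentiviral short hairpin RNA. With 1 library per factor no value has a replicate error. The 95% intervals below are exact, cover counting only and treat intervals as independent, which neighbours are not. The lists give positions and no height, and the number of reads behind them is unknown. The title of the TAL1 library also bears the mark "Sp", which the GATA1 title lacks and whose meaning was not established here. Differences between the factors in number therefore cannot be told apart from differences in depth, in antibody or in what this mark stands for.

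GATA1 is a zinc finger transcription factor of the red cell and megakaryocyte lineages that binds GATA motifs. TAL1, of the basic helix-loop-helix family, binds E-boxes as a partner of E proteins and meets GATA1 on erythroid enhancers through the bridging proteins LMO2 and LDB1. The replication-dependent histone genes are short, without introns, and are transcribed at high rates in S phase to package new DNA. The MHC holds the class I antigen presentation genes and, beyond them, the class III genes of complement, cytokines and heat shock proteins. Between the histone genes and the MHC lie genes of zinc finger proteins and olfactory receptors.

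In the RefSeq table of assembly GRCh38.p14, 55 protein-coding genes of chromosome 6 bear the symbol of a clustered histone gene: 6 of H1, 12 of H2A, 15 of H2B, 10 of H3 and 12 of H4. They stand in 5 uninterrupted runs in gene order. The longest holds 23 genes, from H4C3 to H4C8, between HFE, which encodes a regulator of iron uptake, and the butyrophilin gene BTN3A2. A run of 9 genes from H1-1 to H1-2 lies on the other side of HFE. The run of 16 genes from H2BC13 to H2BC17 lies between ZNF184 and OR2B2. A run of 5, from H2BC11 to H2AC12, lies between ZNF322 and PRSS16, and 2 genes, H2AC1 and H2BC1, lie among solute carrier genes. This table is of another build than the intervals. No gene is therefore assigned to an interval, and the DNA sequence of the intervals was not analysed here.

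Taken over its whole length, the region was denser in GATA1 intervals than the remainder of 6p and the other chromosomes. For TAL1 intervals the ratios were smaller, and the counting intervals of the region and the remainder of 6p overlapped. GATA1 intervals numbered 44.1 per Mb (39.2 to 49.3), against 17.8 per Mb on the remainder of 6p and 7.42 per Mb on chromosomes 1 to 22 and X outside the region. TAL1 intervals numbered 7.97 per Mb (6.005 to 10.4), against 5.95 (5.3 to 6.65) and 2.92 per Mb. There were thus 5.53 GATA1 intervals for each TAL1 interval in the region, 3.00 on the remainder of 6p and 2.54 elsewhere. By class, GATA1-only intervals reached 37.1 per Mb, 7.26 times their density outside the region. Intervals in both lists reached 6.96 per Mb, 3.02 times the outside density, and TAL1-only intervals 1.01 per Mb, 1.64 times. Intervals covered 1.63% of the region, and 0.261% of the chromosomes outside it. These values use full lengths, and parts of the assembly without sequence were not left out. Differences between places in copy number or in how well reads can be mapped were not measured here.

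**Figure D1:**
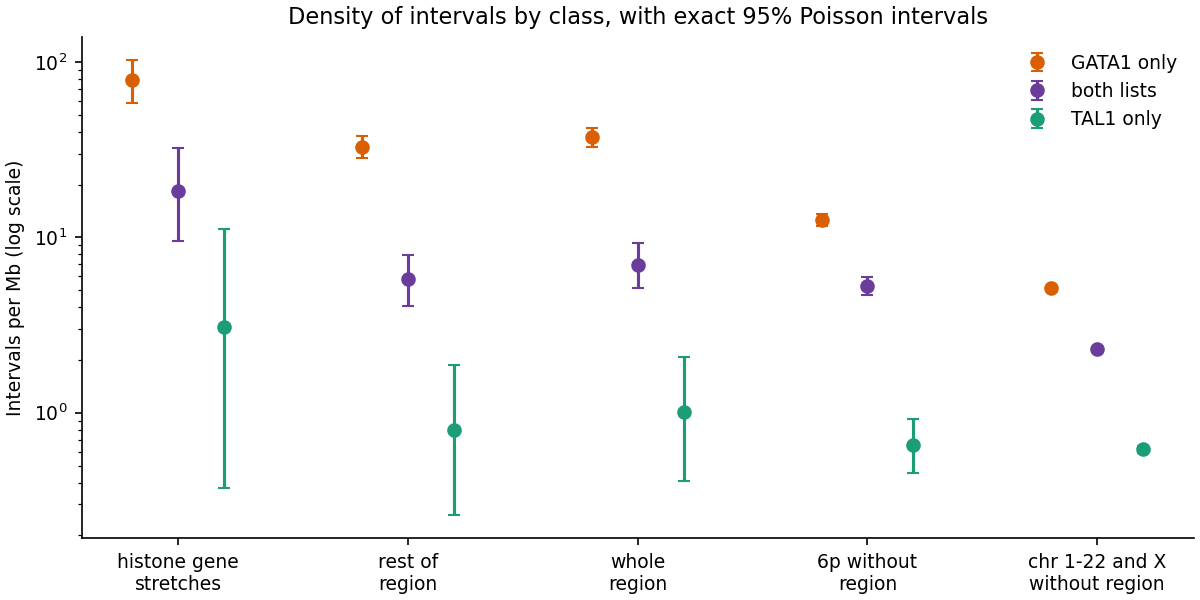
Intervals per Mb (log axis) by class in the histone gene stretches, the rest of the region, the whole region, the remainder of 6p and chromosomes 1 to 22 and X outside the region. Points are densities and bars exact 95% Poisson intervals. GATA1-only intervals fall from 37.1 per Mb in the region to 5.11 per Mb outside it, and intervals in both lists from 6.96 to 2.30.

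Among the GATA1 intervals of the region, 48 of 304 (15.8%, 11.9 to 20.4%) were also TAL1 intervals, against 30.9% of all GATA1 intervals on chromosomes 1 to 22 and X. The remainder of 6p did not have this low share. The GATA1 intervals of 6p before the region shared 29.7% (25.6 to 34.0%) with the TAL1 list and those after it 29.7% (25.5 to 34.1%), near the genome's share. The share was alike in the 3 bands, at 15.3% (11 of 72) in 6p22.2, 16.3% (25 of 153) in 6p22.1 and 15.2% (12 of 79) in 6p21.33. Seen from the TAL1 list, 48 of 55 intervals (87.3%, 75.5 to 94.7%) were also GATA1 intervals, against 78.9% of all TAL1 intervals and 89.0% on the remainder of 6p.

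Stretches of the same 6.9 Mb, laid end to end along every chromosome outside the region, give a scale for these counts. Parts of the assembly without sequence were kept in them. Of 427 such stretches, none held as many GATA1 intervals as the region's 304. Their median was 40 and their highest 225, on chromosome 1 (20700001 to 27600000). In TAL1 intervals the region stood lower in the order, since 18 of the 427 held 55 or more, up to 82. Among the 174 stretches with at least 50 GATA1 intervals, the share also in the TAL1 list ran from 15.7 to 48.1% with a median of 30.4%, and 1 was at or below the region's. The region was picked for its density, so its place in this order is no independent finding.

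Along the region the intervals were unevenly spread. In 69 windows of 100 kb the median was 3 intervals, 16 windows were empty and 11 held 10 or more. The 8 fullest windows held 104 of the 311 intervals (33.4%). The fullest, with 16 GATA1-only intervals and 1 in both lists, lay at 26300001 to 26400000, across the end of the first histone stretch. The next held 14 (27700001 to 27800000, in the second histone stretch). Others of these 8 windows lay outside the stretches, with 13 intervals each from 26500001 and 30700001 and 12 each from 27100001 and 28300001. The remaining ones, with 12 from 26000001 and 11 from 26200001, lay in the first stretch. Windows from 28700001 and 30800001, outside the stretches, also held 11 and tied with the last of these. TAL1 intervals of either class were present in 31 windows, and no window held more than 4 intervals of both lists.

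**Figure D2:**
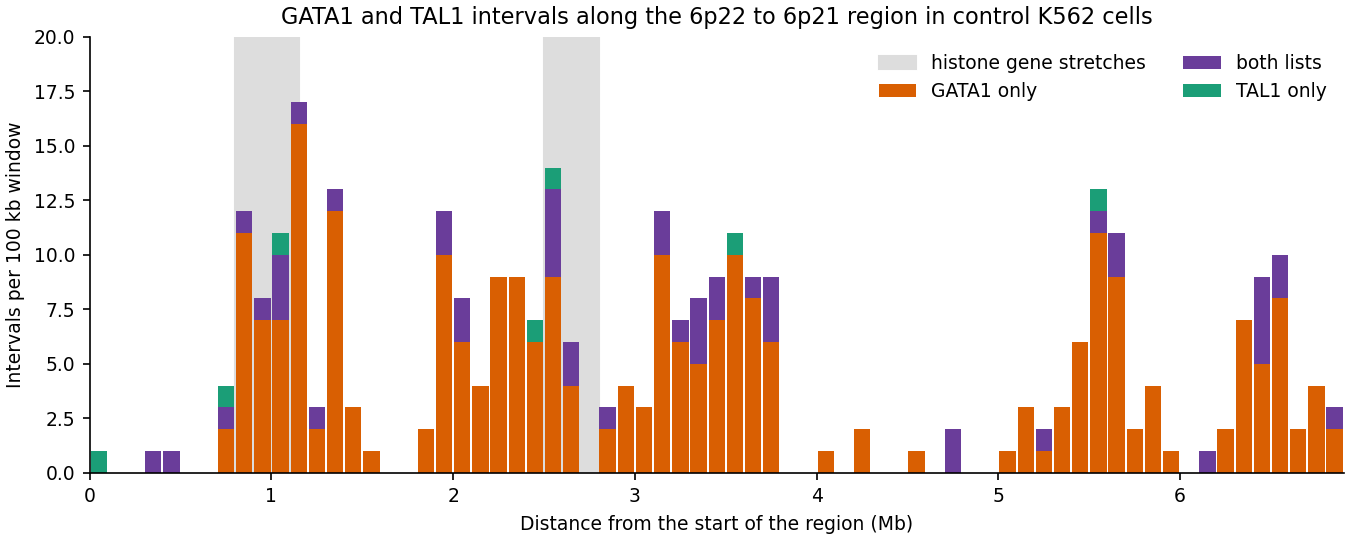
Intervals per 100 kb window (vertical axis, stacked by class) against the distance from the start of the region in Mb, with the histone gene stretches shaded. The fullest window holds 17 intervals, TAL1-only intervals number 7 in all, and a sparse span of 1.5 Mb with 12 intervals begins 3.8 Mb from the start.

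The longest parts of the region without an interval of either list were in 6p22.1 and 6p22.2. They measured 358 kb (29935577 to 30293985), 328 kb (25208035 to 25535589) and 324 kb (29458790 to 29782981). Over all 310 gaps of the region the median was 6.72 kb, and 14 exceeded 100 kb. TAL1 intervals followed each other at a median of 57.7 kb. At the bounds, the region opened with a TAL1-only interval (25207929 to 25208034) and closed with one in both lists (32099366 to 32099677). The nearest intervals outside, at 25036421 to 25036541 and 32108298 to 32108419, were both GATA1 only.

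The histone gene stretches, chr6:26000000-26350000 and chr6:27700000-28000000, together 0.65 Mb, held 65 of the 311 intervals. Since no gene is placed on this build, the rest of the region may hold histone genes too. In the gene order of the other build, the run of 5 from H2BC11 to H2AC12 lies between the runs of 23 and 16 genes. It may therefore fall between the stretches. The contrast is thus one of positions, not of histone genes against other sequence. All classes were denser there than in the rest of the region. GATA1-only intervals numbered 78.5 per Mb (58.4 to 103.2) against 32.8 (28.5 to 37.6), a ratio of 2.39. By stretch they numbered 108.6 per Mb (76.8 to 149.0) in the first and 43.3 per Mb (23.1 to 74.1) in the second. The counting interval of the second stretch overlapped that of the rest, and that of the first did not. This is no test, since counting intervals treat neighbours as independent and the stretches were set with these lists known. Of the 45 intervals of the first stretch, 18 lay in 1 cluster. Intervals in both lists numbered 18.5 per Mb (9.54 to 32.2) against 5.76 (4.03 to 7.97), a ratio of 3.20. TAL1-only intervals were 2 against 5, or 3.08 per Mb against 0.80, with counting intervals that overlapped.

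The make-up by class was close in the histone stretches and the rest, with overlapping counting intervals. In the stretches 12 of 63 GATA1 intervals (19.05%, 10.2 to 30.9%) were also TAL1 intervals, and in the rest 36 of 241 (14.9%, 10.7 to 20.1%), 4.11 percentage points apart. Of the TAL1 intervals, 12 of 14 (85.7%, 57.2 to 98.2%) in the stretches and 36 of 41 (87.8%, 73.8 to 95.9%) in the rest were also GATA1 intervals. The stretches were set with results of these lists known.

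Between the stretches the point values lay farther apart. The first held 44 GATA1 intervals, 6 of them also TAL1 intervals (13.6%, 5.17 to 27.4%), and the second 19, again with 6 (31.6%, 12.6 to 56.6%). Their counting intervals overlapped. The number of TAL1 intervals was 7 in each, with 20 and 23.3 per Mb, while GATA1-only intervals numbered 38 in the first (108.6 per Mb) and 13 in the second (43.3 per Mb). The number of GATA1-only intervals thus differed more between the stretches than that of TAL1 intervals.

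**Figure D3:**
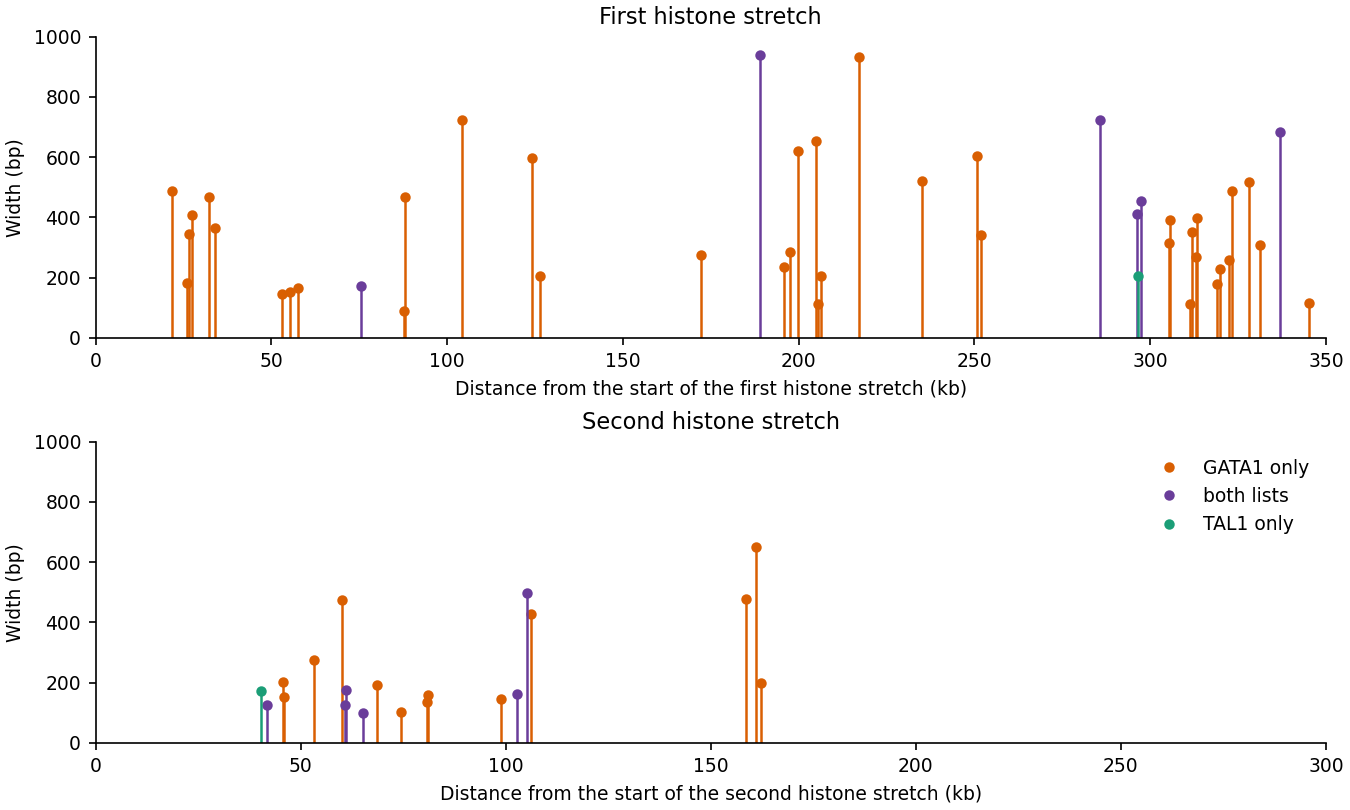
Each interval of the histone gene stretches at its distance from the start of its stretch in kb (horizontal axis) with its width in bp (height), coloured by class. In the first stretch the 6 intervals of both lists measured 173 to 940 bp, and in the second 100 to 496 bp, with nothing after 27862376 in the second.

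The first histone stretch held 5 clusters, of which 3 held TAL1 and 2 did not. Intervals of either list at most 12.5 kb apart were joined to clusters, and those with 3 or more are counted. The first cluster (26021502 to 26034064) held 6 GATA1-only intervals in 12.6 kb, and the next (26053048 to 26057527) 3 GATA1-only intervals. A cluster at 26075346 to 26088340 held 1 interval of both lists, 173 bp wide, and 2 of GATA1 only. At 26188583 to 26217570 there were 8 GATA1 intervals, of which the first, 940 bp wide and the widest of this stretch, was also a TAL1 interval. Among its 7 GATA1-only intervals was one of 933 bp (26216638 to 26217570), nearly as wide.

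Of the 7 TAL1 intervals of the first stretch, 5 lay at its far end. Up to the cluster that begins at 26285405, 285 kb held 27 GATA1 intervals, of which 2 (7.41%, 0.910 to 24.3%) were in both lists. The part of that cluster within the stretch, 64.6 kb, held 18 intervals, of which 4 were in both lists, 1 was TAL1 only and 13 were GATA1 only. Its first 4 intervals (26285405 to 26297680) were all TAL1 intervals: 1 of both lists 722 bp wide, 1 of 411 bp, the TAL1-only interval of 204 bp (26296519 to 26296722) 69 bp beyond it, and 1 of both lists of 454 bp. They were followed by 12 GATA1-only intervals in a row (26305064 to 26331402). The last interval of both lists, 685 bp wide, lay at 26336593 to 26337277. The cluster runs 2.06 kb past the stretch, where it holds 2 more GATA1-only intervals.

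In the second histone stretch the intervals were narrow and the TAL1 intervals close together. The cluster at 27740305 to 27781137 held 13 intervals: 8 of GATA1 only, 4 of both lists and 1 of TAL1 only. The TAL1-only interval (27740305 to 27740476, 172 bp) opened it, 1277 bp before an interval of both lists of 126 bp. The other 3 of both lists, of 124, 176 and 100 bp, followed each other between 27760624 and 27765133. A cluster of 4 at 27798659 to 27806441 had 2 of both lists, of 162 and 496 bp. The last cluster (27858320 to 27862376) held 3 GATA1-only intervals, and the 174 kb after it held none.

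Outside the histone stretches, the cluster with most intervals held no interval of both lists. It lay at 28677728 to 28763958 in 6p22.1, with 16 GATA1-only intervals of 88 to 974 bp and 1 TAL1-only interval in 86.2 kb. The next, at 30735372 to 30782494 in 6p21.33, held 8 intervals of GATA1 only, 1 of TAL1 only and 1 of both lists. The cluster at 26554173 to 26596434 in 6p22.2 held 8 GATA1-only intervals and no TAL1. At 28300923 to 28323791 in 6p22.1, 8 GATA1 intervals included 2 of both lists, 334 bp apart, one of which was the widest of its class in the region (28302927 to 28303965, 1039 bp). The other 5 clusters in this order tied at 7 intervals, each with 1 or 2 of both lists. One of them (32097901 to 32122601) crosses the region's end, and 2 of its 7 intervals are members.

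Of the region's 43 clusters of 3 or more intervals, 23 (53.5%, 37.6 to 68.8%) held both factors and 20 held GATA1 alone, while over chromosomes 1 to 22 and X 74.0% of such clusters held both. The clusters of GATA1 alone held 80 of the 311 members (25.7%). The matching share of intervals over all chromosomes was not counted, so this value has no scale. The share of clusters with both factors depended on the joining distance. Joined up to 5 kb it was 10 of 31 (32.3%) in the region and 70.3% over all chromosomes, and joined up to 25 kb it was 24 of 33 (72.7%, 54.5 to 86.7%) and 77.0%. Members stood in such clusters in 74.0% of cases (230 of 311), against 38.1% outside the region. The longest row of neighbours without TAL1 was 24 GATA1-only intervals over 336 kb (27263150 to 27599543), and the next 19 over 580 kb (26521944 to 27102403). The longest row with TAL1 was the 4 intervals at the start of the cluster crossing the first stretch's end.

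The 7 TAL1-only intervals measured 106 to 385 bp and lay from 69 bp to 171 kb from the nearest GATA1 interval. GATA1 intervals of the region followed each other at a median of 6.83 kb, so short distances need not be a trait of these intervals. The distances of all TAL1-only intervals on the other chromosomes were not counted here. Those of the histone stretches lay 69 and 1277 bp from one. Of the others, the ones at 30735372 to 30735652 and 27601010 to 27601217 lay 1403 and 1466 bp from a GATA1 interval. The widest, at 28757321 to 28757705, lay 6005 bp away within the largest cluster outside the stretches. The remaining 2 had no other interval within 12.5 kb, at 25958881 to 25959258, 15.0 kb from a GATA1 interval, and at 25207929 to 25208034, 171 kb from one.

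In windows with 4 or more GATA1 intervals, the share also in the TAL1 list was lower in the region than elsewhere. In 100 kb windows with 10 or more GATA1 intervals, 14.4% (8.89 to 21.6%) of those in the region and 35.6% (33.0 to 38.1%) of those elsewhere were also TAL1 intervals, over 11 and 119 windows. With 7 to 9 the shares were 18.5% (11.2 to 27.9%) and 33.5% (31.8 to 35.2%), and with 4 to 6 they were 5.88% (0.720 to 19.7%) and 31.6% (30.5 to 32.7%). In windows with 2 or 3 they were 18.4% (7.74 to 34.3%) and 29.4% (28.3 to 30.4%), with overlapping counting intervals. In windows with 1 GATA1 interval the region's share was the higher one, at 37.5% (3 of 8, 8.52 to 75.5%) against 30.0% (28.4 to 31.6%). Windows with 10 or more held 2.09 TAL1 intervals on average in the region and 4.49 elsewhere, at 12 and 11.6 GATA1 intervals.

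Shares by size of cluster were also lower in the region. GATA1 intervals in clusters of 8 or more were TAL1 intervals in 15.0% of cases (12 of 80, 7.998 to 24.7%) in the region and in 36.8% (33.7 to 39.9%) elsewhere. Among those standing alone the shares were 16.3% (7 of 43, 6.80 to 30.7%) and 27.3% (26.4 to 28.3%), with overlapping intervals. With intervals within 2 kb joined to 1 site, 47 of 221 GATA1 sites (21.3%, 16.1 to 27.3%) held TAL1, against 33.8% (33.1 to 34.5%) of sites outside the region.

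**Figure D4:**
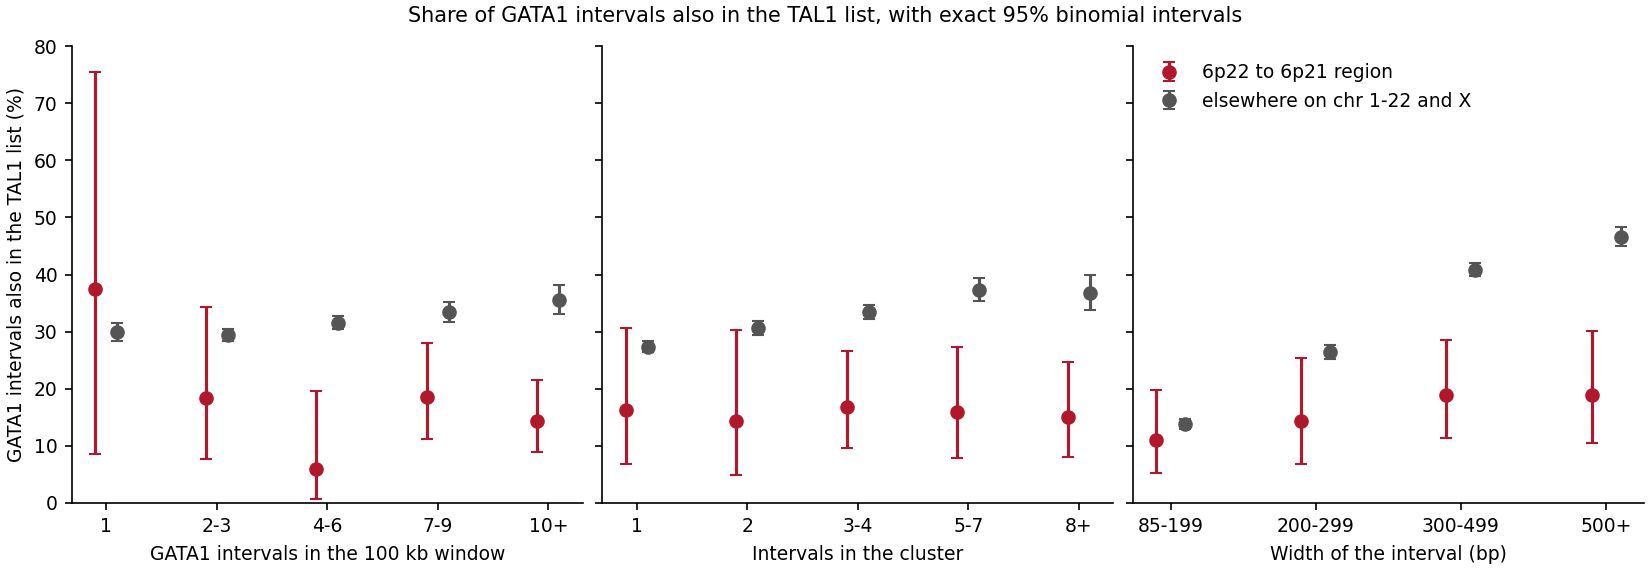
Percent of GATA1 intervals also in the TAL1 list in the region and elsewhere on chromosomes 1 to 22 and X, by GATA1 intervals in the 100 kb window, by intervals in the cluster and by width in bp. Bars are exact 95% binomial intervals. In windows of 10 or more the region stands at 14.4% and the rest at 35.6%, while at widths under 200 bp they stand at 10.98 and 13.8%.

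By width, the region and the other chromosomes were close below 200 bp and farther apart in the wider classes. Outside the region the share of GATA1 intervals also in the TAL1 list was 13.8% (13.0 to 14.7%) below 200 bp and 46.6% (44.9 to 48.3%) at 500 bp or more. In the region it was 10.98% (9 of 82, 5.14 to 19.8%) among the narrowest and 18.8% (13 of 69, 10.4 to 30.1%) among the widest. The shares in the narrowest class were thus alike, those from 200 to below 300 bp were 14.3% (6.75 to 25.4%) and 26.4% (25.2 to 27.6%), and those from 300 to below 500 bp were 18.9% (11.4 to 28.5%) and 40.8% (39.7 to 41.9%). Shared intervals have 1 common width in both lists, so width is not a separate measure of either factor.

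The median width of GATA1-only intervals was above that over all chromosomes, and for intervals in both lists no such difference was seen. It was 302 bp (interquartile range 194 to 474 bp) for the 256 GATA1-only intervals, against 264 bp for all of that class, and 21.9% exceeded 500 bp against 12.1%. For the 48 intervals in both lists the median was 352 bp (232 to 522 bp), against 373 bp for all of that class, which lies within the 95% interval of the region's median (270 to 453 bp). Of these 48, 27.1% exceeded 500 bp, against 23.1% of all. The 7 TAL1-only intervals had a median of 208 bp, against 274 bp. The widest interval of all in the region was GATA1 only, 1240 bp at 31619715 to 31620954 in 6p21.33. Widths of the 6 intervals of both lists had a median of 570 bp in the first histone stretch and 144 bp in the second. GATA1-only intervals had medians of 329 and 198 bp there, so that both classes were narrower in the second.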

How the data were processed

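GATA1 and TAL1 ChIP-seq of control K562 cells was used, with 1 peak list each. Both lists hold 3 columns, the positions of the intervals as deposited by the authors, without height, score or p-value. Trimmomatic, Bowtie2, MACS2, deepTools and hg19 are named per the submitters' processing notes, and versions, thresholds and pooling are not given in the sources used here. Nuclei were digested with micrococcal nuclease, per the labels' protocols.

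Groups came from the sample titles. Intervals were read with Python 3.11.15, numpy 2.4.6 and pandas 2.3.3, and counts were checked with bedtools 2.31.1. Overlap by at least 1 bp and identity of both bounds gave the same 7029 shared intervals. The 4 mitochondrial TAL1 intervals were left out of comparisons. Positions are counted from 1. Shares have exact (Clopper-Pearson) and densities exact Poisson 95% intervals (scipy 1.17.1). Chromosome lengths are those of GenomeInfoDb 1.38.1 and bands those of circlize 0.4.16. Figures were drawn with matplotlib 3.10.9. Counting and joining were tested on simulated lists. Depth is unknown.

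The region, its stretches and the classes were chosen with earlier results of these data known. Named were all clusters and TAL1-only intervals of the histone stretches, and, in the rest, the 5 largest clusters (with ties), the widest interval of each class, all TAL1-only intervals and the 3 longest gaps. Other intervals, rows of neighbours and classes by window, cluster and width were picked after values were seen. Alternatives changed the overlap, joining, width, bounds, window and cluster distance.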

Additional observations from a re-analysis of the deposited data

How the results depend on the processing

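Requiring 50% overlap could change no share, since shared intervals have identical bounds. Counting centres within 200 bp could also have paired close neighbours, but changed no share here. All 20 values under these alternatives stayed as they were. Of the other 76 alternative values, 62 stayed within the counting interval of the main value, or, for counts of clusters, within 1.5 times, and 14 did not. Among the 62, membership by the interval's centre changed no value, since no interval crosses a bound. In small groups the counting interval is wide, as at 12.6 to 56.6% for 19 GATA1 intervals in the second stretch. Staying within it says little there. Joining intervals within 2 kb raised the share of GATA1 intervals also in the TAL1 list to 21.3% in the region and 20.2% outside the histone stretches. It lowered GATA1 density to 58.5 per Mb in the stretches and 29.3 per Mb outside them, since fewer units are counted. The share of TAL1 intervals also in the GATA1 list became 100% with joined sites in both stretches together (10 sites), in the first (5) and in the second (5). It also became 100% among intervals not narrower than the median (6 in both stretches, 5 in the first, 1 in the second), and in the first stretch with edges within 1000 bp (7). Without the cluster crossing the first stretch's upper bound, an alternative added after the data were seen, it was 100% (2). The densest window held 280 intervals per Mb at 50 kb, against 170 at 100 kb. Clusters with both factors numbered 10 of 31 when joined up to 5 kb and 24 of 33 up to 25 kb, against 23 of 43. Motif shares were not run, as no hg19 genome was used here. No paired analysis was possible because each factor has 1 library and no test was made. Depth limits every count, since neither list gives reads.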

Other observations

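Neighbouring GATA1 intervals of the region were mostly both without TAL1, in each class of distance. Since 15.8% of the region's GATA1 intervals were also TAL1 intervals, a majority of such pairs is no neighbour pattern in itself. Of 47 pairs at most 500 bp apart, 40 (85.1%) had TAL1 at neither interval, 5 at one and 2 at both, while elsewhere 57.6% of 2201 such pairs had TAL1 at neither and 24.0% at both. At 500 to 2000 bp TAL1 was at neither interval in 31 of 36 pairs (86.1%), against 45.6% elsewhere. From 2000 to 12500 bp this held for 73 of 116 pairs (62.9%) against 46.3%, and farther apart for 79 of 104 (76.0%) against 50.2%. The share of such pairs given by the class shares alone was not counted. Pairs share intervals with each other, so these are descriptions without a test.

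The sparsest 1.5 Mb of the region, picked after the counts were seen, lay at 29000001 to 30500000, across the boundary of 6p22.1 and 6p21.33. It held 12 intervals, 8 per Mb, close to the 8.04 per Mb of the chromosomes outside the region, and 3 of its 12 GATA1 intervals (25%, 5.49 to 57.2%) were also TAL1 intervals. Of these 3, a pair lay 2352 bp apart at 29932606 to 29935576, and the nearest interval before it was 149 kb away. Without this span the region held 55.4 intervals per Mb, and 15.4% (11.5 to 20.1%) of its GATA1 intervals were TAL1 intervals.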
